A study of Mus musculus with 20 samples.

Results

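The quiescent stellate cell markers examined here are 10 genes, Lrat, Reln, Hgf, Ecm1, Colec11, Rgs5, Bmp5, Ngfr, Hand2 and Angptl6. They were chosen by name and looked up by Ensembl identifier and symbol among the 49315 genes of the deposited liver table, which held all 10 of them. The livers came from 20 obese mice with diet-induced steatohepatitis, which all stayed on the AMLN diet (high in fat, fructose and cholesterol). Over 8 weeks 10 of them were dosed orally with S217879 (30 mg/kg, once a day), and the other 10 were given vehicle only, 1% HEC. The labels give neither the strain, the sex nor the age of the animals, and no group on a normal diet was used here. The series title describes S217879 as a disruptor of the contact between KEAP1 and NRF2, the transcription factor that KEAP1 represses, and asks about steatohepatitis and liver fibrosis. Each liver gave 1 library of polyadenylated RNA, and levels are in TPM, a share of the library scaled by gene length.

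Hepatic stellate cells lie between the hepatocytes and the sinusoidal endothelium and store vitamin A as retinyl esters in lipid droplets. In the quiescent state they carry a characteristic set of genes for retinoid storage, growth factors and secreted proteins. In an injured liver they become activated, lose their droplets and turn into collagen-producing myofibroblasts, and the genes named here are used as markers of the quiescent state.

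All 10 markers were detected in every liver at a mean of at least 1 TPM, the minimum used for testing. The genes that mark stellate cells in either state were present as well, with Dcn, a matrix proteoglycan, at 170 ± 45.6 TPM in S217879 livers and 217 ± 42.2 TPM in vehicle livers (SD, n = 10 each). Whole liver holds all cell types in 1 RNA pool, so fewer stellate cells and less RNA per stellate cell cannot be told apart. Several of the markers are also known from other cells, Rgs5 from pericytes, Ngfr from nerve-associated cells and portal fibroblasts, and Ecm1 from hepatocytes. Among 10 smooth muscle and pericyte genes, 4 averaged 1 TPM or more over the 20 livers: Myh11, Notch3, Kcnj8 and Abcc9. Cnn1 and Cspg4 averaged at most 0.174 TPM in either group. Among 6 Schwann cell genes only Mbp averaged 1 TPM or more over the 20 livers, and Sox10 averaged 0.0152 TPM in S217879 livers and 0.0068 TPM in vehicle livers.

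Of the 10 markers, 6 fell in livers of mice given S217879 and 0 rose, with limma's moderated test over all genes and a Benjamini-Hochberg adjusted p under 0.05. Of all 13401 genes tested, 23.5% fell and 6.07% rose at that adjusted threshold. The 6 were Reln, Rgs5, Lrat, Ngfr, Hand2 and Hgf. At an unadjusted p under 0.05 the marker counts were 7 and 0. The shares of all genes at an unadjusted p were not counted, here or for the lists below, and are larger. Angptl6, with an unadjusted p of 0.0534 in limma's test, ranked 5463 of the 13401 genes by p. Bmp5 and Colec11 were lower by a difference that did not pass, Ecm1 differed by 0.04 on the log2 scale, which did not pass, and Angptl6 was higher by a difference that did not pass. The median log2 difference of the 10 markers was -0.32, against -0.12 over all genes tested, with S217879 minus vehicle on the log2(TPM + 0.5) scale. That scale understates differences of low genes, and 7 of the markers averaged under 20 TPM in both groups. The percent falls given below are computed from these log2 differences, so they are changes in the geometric mean of TPM + 0.5. The groups overlapped for all 10 markers, and 3.73% of all genes had no overlap.

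**Figure D1:**
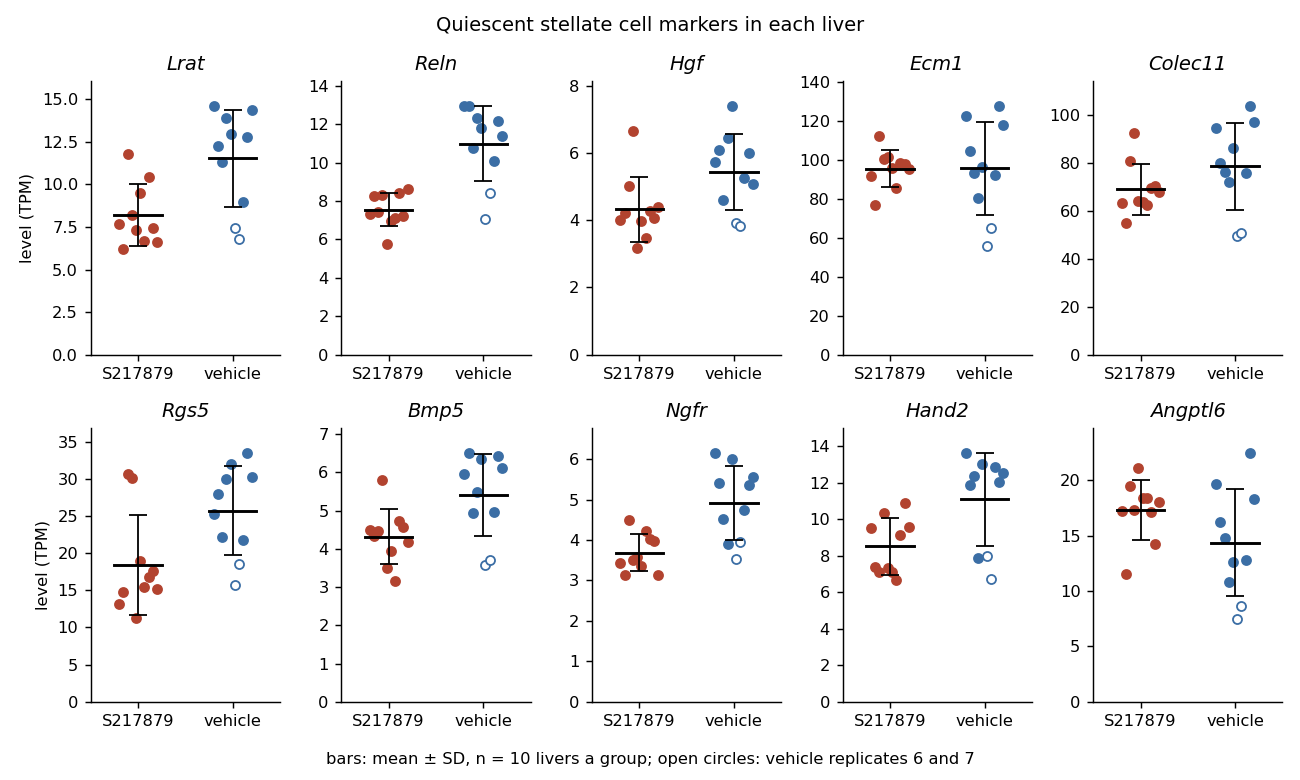
Level of each quiescent stellate cell marker (y axes, TPM, starting at 0) in each liver, S217879 in red and vehicle in blue, with the mean and SD of 10 livers a group. Open circles are vehicle replicates 6 and 7, which are the lowest 2 vehicle livers for 8 of the 10 markers, and the groups overlap for all 10 markers.

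In vehicle replicates 6 and 7, 4 genes of ribosomal RNA type held 58.2% and 50.7% of the library, against 14.1% to 38.1% in the other 18 libraries. As TPM values are shares, a smaller part of these 2 libraries was left to all other genes, and results are given with and without them. Median-of-ratios scaling, which sets each library by the typical gene and not by its total, was used as a second view of each value.

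Lrat (ENSMUSG00000028003, chr3:82892579-82903973 of GRCm38, minus strand) encodes lecithin retinol acyltransferase, the enzyme that esterifies retinol for storage in the droplets. It ranged from 6.20 TPM through a median of 7.55 TPM to 11.8 TPM in S217879 livers, against 6.78, 12.5 and 14.6 TPM in vehicle livers. All 10 S217879 livers lay below the vehicle median, but the groups overlapped, since vehicle replicates 3, 6, 7 and 8 fell among the S217879 livers. Lrat fell by 27.0% (log2 difference -0.45, SE 0.13, adjusted p = 0.0088).

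Hand2 (ENSMUSG00000038193, chr8:57320983-57324633, plus strand) encodes a basic helix-loop-helix transcription factor of the stellate lineage. Its lowest, median and highest levels were 6.67, 8.28 and 10.9 TPM in S217879 livers, against 6.71, 12.2 and 13.6 TPM in vehicle livers. The 7 highest vehicle livers stood above every S217879 liver, and the 3 others, replicates 4, 6 and 7, lay within the S217879 range. Hand2 fell by 21.3% (log2 difference -0.35, SE 0.13, adjusted p = 0.033). The call was lost in 12 of 20 fits that each left out 1 library and held without S217879 replicate 1, 4, 8, 9 or 10 or vehicle replicate 4, 6 or 7. Hand2os1 lies antisense over Hand2 exons and averaged 5.13 ± 1.36 TPM in S217879 livers and 6.60 ± 1.56 TPM in vehicle livers, and since the strand setting of the counting is not given, reads of the pair cannot be told apart.

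Hgf (ENSMUSG00000028864, chr5:16553495-16620152, plus strand) encodes hepatocyte growth factor, which stellate cells release and hepatocytes receive through MET. From lowest through median to highest, levels were 3.19, 4.14 and 6.67 TPM in S217879 livers, against 3.84, 5.51 and 7.41 TPM in vehicle livers. As deposited, S217879 replicate 4 stood far above the other livers of its group and was the only one of them above the vehicle median. After median-of-ratios scaling it lay close to S217879 replicate 3. Hgf fell by 18.6% (log2 difference -0.30, SE 0.12, adjusted p = 0.0495). The call sits at the threshold and held in 5 of 20 fits that each left out 1 library, those without S217879 replicate 3 or 4 or vehicle replicate 3, 6 or 7. Gm43489, a gene model of type TEC on the same strand, overlaps Hgf exons at 0.435 ± 0.19 TPM in S217879 livers and 0.672 ± 0.16 TPM in vehicle livers.

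Bmp5 (ENSMUSG00000032179, chr9:75775364-75900310, plus strand) encodes a bone morphogenetic protein, a ligand of the TGF-beta family that signals through SMAD1, SMAD5 and SMAD9. Lowest, median and highest values were 3.15, 4.40 and 5.80 TPM in S217879 livers, against 3.59, 5.73 and 6.51 TPM in vehicle livers. Of the S217879 livers 9 lay below the vehicle median, and 5 vehicle livers lay above every S217879 liver. The log2 difference was -0.28 (SE 0.11, adjusted p = 0.0518), just outside the threshold, and it passed without S217879 replicate 4 or vehicle replicate 6 or 7.

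Angptl6 (ENSMUSG00000038742, chr9:20873808-20879727, minus strand) encodes a secreted angiopoietin-like protein. Levels ran from lowest through median to highest at 11.5, 17.7 and 21.1 TPM in S217879 livers, against 7.48, 13.8 and 22.5 TPM in vehicle livers. It was the only marker with more than 7 S217879 livers above the vehicle median, 9 of 10, although vehicle replicate 9 was the highest liver of all. The log2 difference was 0.31 (SE 0.16, adjusted p = 0.13) and passed without vehicle replicate 9 (adjusted p = 0.0399). A230050P20Rik lies antisense over Angptl6 exons at a higher level, 32.0 ± 7.03 TPM in S217879 livers and 41.3 ± 7.33 TPM in vehicle livers, and it fell (log2 difference -0.37, adjusted p = 0.0236). Both genes differed in opposite directions, and without the strand setting the level of Angptl6 stays uncertain.

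Ngfr (ENSMUSG00000000120, chr11:95568818-95587735, minus strand) encodes the p75 neurotrophin receptor and, within the stellate population, marks cells on the portal side of the lobule. Minimum, median and maximum were 3.13, 3.55 and 4.50 TPM in S217879 livers, against 3.54, 5.05 and 6.15 TPM in vehicle livers. All 10 S217879 livers lay below the vehicle median and 7 vehicle livers lay above every S217879 liver. Ngfr fell by 22.1% (log2 difference -0.36, SE 0.10, adjusted p = 0.0072).

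Rgs5 (ENSMUSG00000026678, chr1:169655501-169695813, plus strand) encodes a regulator of G protein signalling of stellate cells and pericytes. Its level had a lowest, median and highest value of 11.3, 16.1 and 30.7 TPM in S217879 livers, against 15.7, 26.7 and 33.5 TPM in vehicle livers. S217879 replicates 3 and 4, at 30.7 and 30.1 TPM, were within the upper vehicle range, and the other 8 S217879 livers were at most 18.9 TPM. Rgs5 fell by 29.5% (log2 difference -0.50, SE 0.17, adjusted p = 0.0228) and had the widest spread of the markers in S217879 livers, a coefficient of variation of 36.3%, against 23.4% in vehicle livers. Of the 4 smooth muscle and pericyte genes tested 1 fell and 0 rose, against 23.5% and 6.07% of all genes. It was Abcc9, a potassium channel subunit of pericytes (8.35 ± 1.65 TPM in S217879 livers, 11.1 ± 1.90 TPM in vehicle livers, adjusted p = 0.0083). Its partner subunit Kcnj8 had a log2 difference of -0.29 (adjusted p = 0.0506), the smooth muscle myosin Myh11 one of -0.04 (adjusted p = 0.81) and the receptor Notch3 one of 0.04 (adjusted p = 0.81). The summed level of the 10 smooth muscle and pericyte genes ran from 13.9 to 24.6 TPM in S217879 livers and from 16.2 to 25.7 TPM in vehicle livers. The part of these cells in the difference of Rgs5 was not tested.

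Reln (ENSMUSG00000042453, chr5:21884454-22344702, minus strand) encodes reelin, a large secreted glycoprotein that in liver comes from stellate cells. Low, median and high levels were 5.78, 7.40 and 8.64 TPM in S217879 livers, against 7.06, 11.6 and 13.0 TPM in vehicle livers. Of the vehicle livers 8 lay above every S217879 liver, and replicates 6 and 7 were the 2 that did not. Reln fell by 29.3% (log2 difference -0.50, SE 0.11, adjusted p = 0.00041), the lowest adjusted p of the 10 markers.

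Ecm1 (ENSMUSG00000028108, chr3:95734147-95739569, minus strand) encodes extracellular matrix protein 1, which binds latent TGF-beta and hinders its activation. It was the most abundant marker, with lowest, median and highest levels of 76.6, 96.9 and 112 TPM in S217879 livers, against 55.7, 94.8 and 128 TPM in vehicle livers. The S217879 livers lay within the vehicle range. The log2 difference was 0.04 (95% interval -0.23 to 0.30, adjusted p = 0.87), and its sign turned without vehicle replicate 6 or 7 (-0.05 and -0.02).

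Colec11 (ENSMUSG00000036655, chr12:28594173-28623377, minus strand) encodes a collectin, a soluble sugar-binding protein that starts the lectin pathway of complement. In order of lowest, median and highest, it had 54.8, 65.9 and 92.5 TPM in S217879 livers, against 49.5, 78.2 and 104 TPM in vehicle livers. Of the S217879 livers 8 lay below the vehicle median, and the 2 lowest livers of all were vehicle replicates 6 and 7. The log2 difference was -0.16 (95% interval -0.43 to 0.10, adjusted p = 0.37).

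The order of levels was nearly the same in both groups. In S217879 livers Ecm1 (95.5 ± 9.51 TPM) stood above Colec11 (68.9 ± 10.7 TPM) in all 10 livers, with means apart by more than either SD, and Colec11 stood above Rgs5 (18.4 ± 6.69 TPM) likewise. In vehicle livers Ecm1 (95.6 ± 23.8 TPM) was also above Colec11 (78.6 ± 18.1 TPM) in all 10, but their means were within the larger SD of each other. Rgs5 and Angptl6 (17.3 ± 2.69 TPM) did not differ beyond their spread in S217879 livers. In vehicle livers Rgs5 (25.7 ± 6.01 TPM) was above Angptl6 (14.4 ± 4.84 TPM) in all 10. Hand2, Lrat and Reln formed a next step that did not separate, at 8.52, 8.19 and 7.55 TPM in S217879 livers and 11.1, 11.5 and 11.0 TPM in vehicle livers, where Angptl6 was also within its SD of Lrat. Hgf, Bmp5 and Ngfr came last and were within their spread of each other, at 4.33, 4.32 and 3.69 TPM in S217879 livers and 5.44, 5.41 and 4.91 TPM in vehicle livers.

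The stretches before the start sites of the 4 markers with the steadiest falls, and of Hand2, whose protein binds the E-box, are shown. Whether these genes share a regulator was not tested. Each is the 250 bases upstream of the RefSeq start in GRCm38.p6, written 5′ to 3′ on the strand of the gene, with every CANNTG (the E-box) and every GATAA or its complement (the GATA site) in capitals. The windows are chr3:82903975-82904224 for Lrat, chr5:22344706-22344955 for Reln, chr1:169655251-169655500 for Rgs5, chr11:95587699-95587948 for Ngfr and chr8:57320733-57320982 for Hand2.
Lrat: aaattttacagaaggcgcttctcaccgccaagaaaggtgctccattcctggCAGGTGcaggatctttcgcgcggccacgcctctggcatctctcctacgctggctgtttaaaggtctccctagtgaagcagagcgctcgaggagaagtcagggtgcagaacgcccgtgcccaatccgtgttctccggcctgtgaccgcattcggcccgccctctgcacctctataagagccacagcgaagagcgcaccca
Reln: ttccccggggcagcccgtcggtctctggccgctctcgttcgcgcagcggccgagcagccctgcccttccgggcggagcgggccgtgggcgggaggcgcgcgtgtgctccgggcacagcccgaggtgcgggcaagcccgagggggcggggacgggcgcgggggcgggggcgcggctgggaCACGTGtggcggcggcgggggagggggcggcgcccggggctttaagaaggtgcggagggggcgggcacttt
Rgs5: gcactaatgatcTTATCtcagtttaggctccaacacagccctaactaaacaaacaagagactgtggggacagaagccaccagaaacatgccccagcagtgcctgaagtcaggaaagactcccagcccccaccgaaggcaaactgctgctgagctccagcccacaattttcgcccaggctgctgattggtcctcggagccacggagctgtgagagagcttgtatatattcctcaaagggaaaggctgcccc
Ngfr: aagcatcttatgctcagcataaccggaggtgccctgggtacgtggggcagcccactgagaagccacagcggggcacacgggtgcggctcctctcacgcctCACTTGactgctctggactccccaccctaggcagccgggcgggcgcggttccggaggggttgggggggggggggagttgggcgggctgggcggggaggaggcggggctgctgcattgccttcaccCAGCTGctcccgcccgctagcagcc
Hand2: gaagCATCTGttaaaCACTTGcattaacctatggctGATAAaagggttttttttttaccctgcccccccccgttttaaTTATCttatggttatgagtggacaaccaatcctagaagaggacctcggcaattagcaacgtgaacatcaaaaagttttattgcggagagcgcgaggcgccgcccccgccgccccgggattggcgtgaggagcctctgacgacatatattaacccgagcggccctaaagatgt

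On either strand, TGACNNNGC, the core of the antioxidant response element that NRF2 binds, occurred in 0 of the 11 windows of the 10 markers (Hgf has 2), against 10.2% of all 32817 mouse promoter windows of that length. AGGTCA, an element of retinoid and other nuclear receptors, also occurred in 0 of 11, against 14.0% of all windows. CANNTG occurred in 8 of 11 windows, against 66.2% of all, and GATAA in 5 of 11, those of Colec11, Rgs5, Bmp5, Hand2 and Angptl6, against 22.6% of all. No match overlapped a match of another motif. These matches are letters in 250 bases and say nothing about binding elsewhere.

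After median-of-ratios scaling, 6 markers fell and 1 rose, while 27.1% of all genes fell and 26.6% rose. Reln, Rgs5, Lrat, Ngfr and Hand2 fell on both scales, with scaled log2 differences of -0.39, -0.39, -0.34, -0.25 and -0.23. Bmp5 fell on this scale (log2 difference -0.18, SE 0.06, adjusted p = 0.0245) and Hgf did not pass (-0.19, SE 0.09, adjusted p = 0.0741). Angptl6 rose (log2 difference 0.43, SE 0.12, adjusted p = 0.0055), with 18.1 ± 3.46 in S217879 livers and 13.4 ± 3.07 in vehicle livers in scaled TPM. The median of all genes was -0.01 and that of the markers -0.21. Ecm1 at 0.15 (adjusted p = 0.0848) and Colec11 at -0.05 (adjusted p = 0.58) did not pass.

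Without vehicle replicates 6 and 7, as deposited, 8 of the 10 markers fell and 0 rose, but 54.5% of all genes fell and 5.52% rose. Colec11 joined the markers that fell (log2 difference -0.31, adjusted p = 0.006), as did Bmp5 (-0.41, adjusted p = 0.000582). Reln and Lrat then had log2 differences of -0.62 and -0.61, Ecm1 -0.12 (adjusted p = 0.25) and Angptl6 0.13 (adjusted p = 0.38). With the 2 libraries left out and median-of-ratios scaling, the same markers passed as with scaling alone, 6 lower and Angptl6 higher, while 23.8% of all genes fell and 24.1% rose.

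Every gene of the pan-stellate list fell: Des, Pdgfrb, Pdgfra, Dcn and Cygb, which mark stellate cells in either state. Their median log2 difference was -0.64. Pdgfrb, the receptor for PDGF-B, had 9.60 ± 2.28 TPM in S217879 livers and 15.0 ± 2.49 TPM in vehicle livers (log2 difference -0.64, SE 0.12, adjusted p = 8.88e-05). Of the activated stellate cell markers, a list that also holds Pdgfrb, 12 of 12 tested fell, with a median of -0.76. Of all genes tested 23.5% fell. Whether this list differs from the pan-stellate list was not tested. Col1a1, a chain of type I collagen, had 23.9 ± 6.53 TPM in S217879 livers and 58.4 ± 11.5 TPM in vehicle livers (log2 difference -1.31, adjusted p = 9.75e-09), and Timp1, an inhibitor of metalloproteinases, had 4.22 ± 0.72 and 9.07 ± 1.89 TPM in S217879 and vehicle livers (log2 difference -1.01, adjusted p = 2.43e-09).

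**Figure D2:**
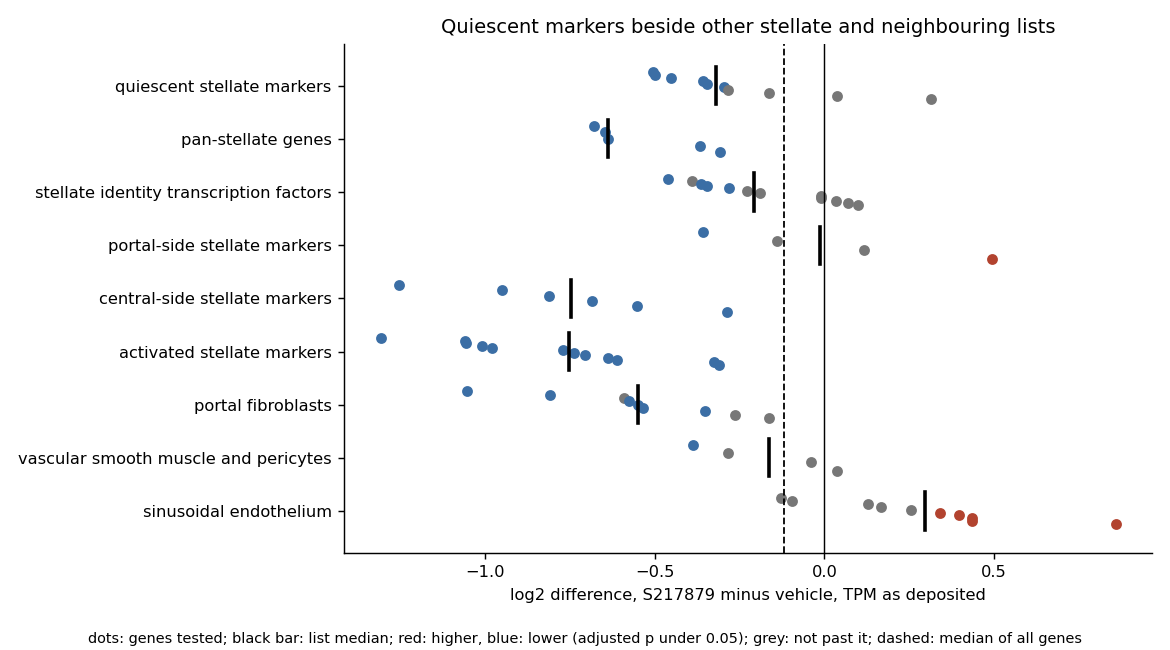
Log2 difference of each tested gene (x axis, S217879 minus vehicle, TPM as deposited), by gene list, with the list median as a black bar and the median of all genes, -0.12, as a dashed line. The quiescent markers, median -0.32, sit between the dashed line and the pan-stellate, central-side and activated lists, with medians of -0.64, -0.75 and -0.76.

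When each library was set by the mean log2 level of the 5 pan-stellate genes, 0 markers were lower (0 also at an unadjusted p under 0.05) and 6 were higher, Angptl6, Ecm1, Colec11, Bmp5, Hgf and Hand2. On this measure 73.8% of all genes were higher and 3.05% lower, with a median of 0.41, so the share of markers higher was below that of all genes. Relative to the pan-stellate genes Reln differed by 0.03 (95% interval -0.19 to 0.24), Rgs5 by 0.02 (-0.31 to 0.35), Lrat by 0.07 (-0.22 to 0.37) and Ngfr by 0.17 (-0.07 to 0.41), and none of these passed. Angptl6 at 0.84, Ecm1 at 0.56, Colec11 at 0.36 and Bmp5 at 0.24 kept their calls whichever of the 5 genes was left out. Hgf at 0.23 (adjusted p = 0.0499) and Hand2 at 0.18 (adjusted p = 0.0404) kept theirs in 2 of 5. Without vehicle replicates 6 and 7, where 75.8% of all genes were higher, the same genes passed except Hand2 (0.17, adjusted p = 0.0687).

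Relative to Col1a1 in the same library all 10 markers were higher, by 0.80 to 1.62 on the log2 scale, but so were 97.4% of all genes. Reln stood at 34.2% of the Col1a1 level in S217879 livers and 19.5% in vehicle livers, as geometric means of the ratio of TPM + 0.5, and its ratios did not overlap between the groups. The ratios of Ecm1, Colec11, Bmp5, Ngfr and Angptl6 did not overlap either, and that held for 71.0% of all genes. Lrat stood at 36.4% of Col1a1 in S217879 livers and 20.2% in vehicle livers, with overlap.

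**Figure D3:**
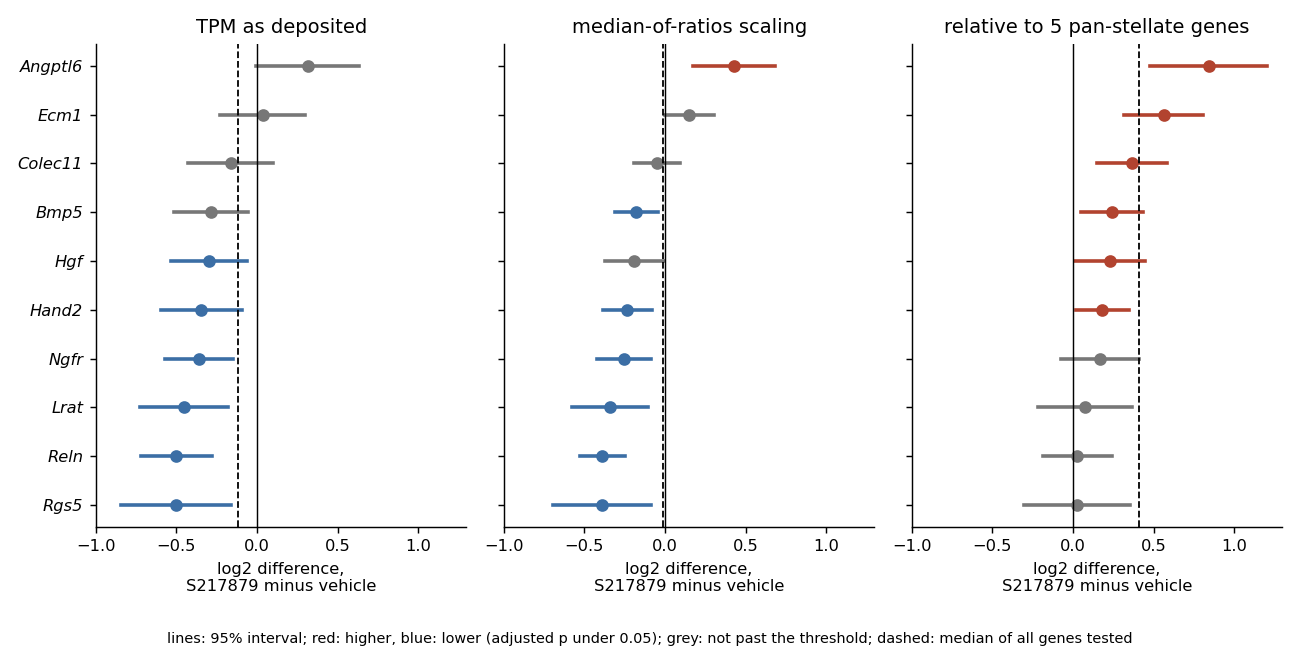
Log2 difference of each marker (x axes, S217879 minus vehicle) with its 95% interval, for TPM as deposited, after median-of-ratios scaling and relative to the 5 pan-stellate genes, with the median of all genes dashed. Reln, Rgs5, Lrat, Ngfr and Hand2 lie below 0 on the first and second scales, and Reln, Rgs5 and Lrat lie near 0 on the last, where the median of all genes is 0.41.

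Stellate cells differ along the lobule, and the lists for the 2 sides differed in count. Of the 4 portal-side genes tested, Igfbp3 rose and Ngfr fell, while 6.07% of all genes rose and 23.5% fell. Igfbp3, a carrier of insulin-like growth factors, had 27.3 ± 5.42 TPM in S217879 livers and 19.6 ± 4.94 TPM in vehicle livers (log2 difference 0.49, SE 0.13, adjusted p = 0.0038), with all 10 S217879 livers above the vehicle median. The 6 central-side genes all fell, and Spon2, a secreted matrix protein, had 5.57 ± 1.08 TPM in S217879 livers and 14.0 ± 2.93 TPM in vehicle livers (log2 difference -1.25, SE 0.12, adjusted p = 3.65e-11). Whether the lists differ from each other was not tested.

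Of the 12 transcription factors of stellate identity tested, 4 fell (33.3%) and 0 rose, against 23.5% and 6.07% of all genes. Ets2 had the lowest adjusted p, with 14.2 ± 2.26 TPM in S217879 livers and 19.7 ± 2.97 TPM in vehicle livers (log2 difference -0.46, SE 0.11, adjusted p = 0.0012). Lhx2, which holds stellate cells in the quiescent state in mice, also fell (2.07 ± 0.32 TPM in S217879 livers, 2.84 ± 0.63 TPM in vehicle livers, adjusted p = 0.0103), and Foxf1 and Hand2 were the others. Pparg, another regulator of quiescence, had 18.8 ± 2.53 TPM in S217879 livers and 18.8 ± 4.36 TPM in vehicle livers (adjusted p = 0.87). These are whole-liver levels, and which cells the transcripts of these factors come from was not tested. Median-of-ratios scaling also called 4 lower, but with Gata4 and Irf2 higher, against 27.1% of all genes lower and 26.6% higher.

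Of 23 genes tested of the retinoid pathway, to which Lrat belongs, 3 rose (13.0%) and 7 fell (30.4%), Lrat included, against 6.07% and 23.5% of all genes. After median-of-ratios scaling 5 rose (21.7%) and 7 fell (30.4%), against 26.6% and 27.1% of all genes. Stra6l, a membrane receptor for the plasma retinol carrier RBP4, had 18.6 ± 2.71 TPM in S217879 livers and 29.8 ± 4.38 TPM in vehicle livers (log2 difference -0.66, SE 0.11, adjusted p = 1.02e-05). Rarb, a retinoic acid receptor and itself a target of retinoic acid, had 2.18 ± 0.45 TPM in S217879 livers and 3.93 ± 1.06 TPM in vehicle livers (log2 difference -0.71, adjusted p = 1.56e-05). Pnpla3, a lipase that acts on retinyl esters in human stellate cells, had 0.67 ± 0.38 TPM in S217879 livers and 3.05 ± 1.92 TPM in vehicle livers (log2 difference -1.49, adjusted p = 0.000227).

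The 3 retinoid genes that rose were Aldh1a1, Rdh10 and Ttr. Aldh1a1, which oxidises retinal to retinoic acid, had 1896 ± 238 TPM in S217879 livers and 1123 ± 273 TPM in vehicle livers (log2 difference 0.80, SE 0.15, adjusted p = 6.3e-05). Rdh10, which oxidises retinol to retinal, had 25.3 ± 2.16 TPM in S217879 livers and 16.8 ± 3.45 TPM in vehicle livers (log2 difference 0.60, SE 0.12, adjusted p = 8.72e-05). In both, all 10 S217879 livers lay above the vehicle median. Rbp4, the plasma carrier of retinol made by hepatocytes, had 2823 ± 283 TPM in S217879 livers and 3201 ± 838 TPM in vehicle livers (adjusted p = 0.55).

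**Figure D4:**
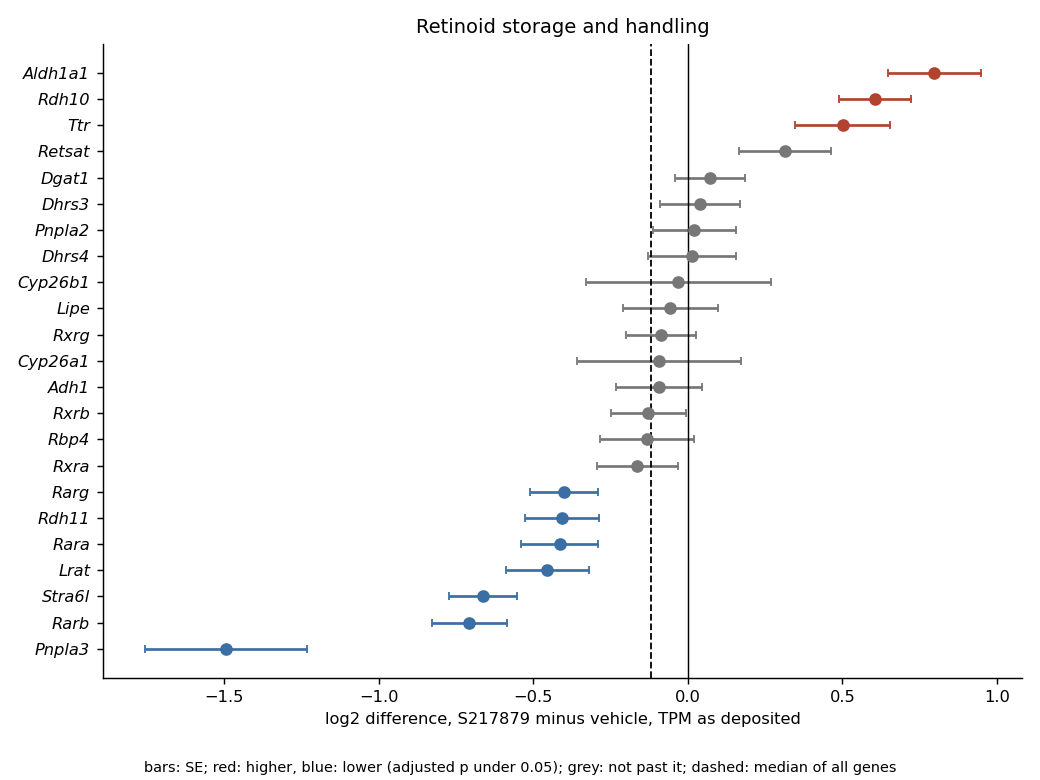
Log2 difference of the 23 tested genes of retinoid storage and handling (x axis, S217879 minus vehicle, TPM as deposited) with SE, ordered from highest to lowest. Red genes rose, blue genes fell and grey genes did not pass; Lrat at -0.45 is 1 of 7 that fell, and the dashed line is the median of all genes at -0.12.

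The receptors and partners of the secreted markers were read beside them. MET, the receptor for hepatocyte growth factor, had 25.3 ± 2.57 TPM in S217879 livers and 25.3 ± 5.40 TPM in vehicle livers (log2 difference 0.03, adjusted p = 0.88), and after median-of-ratios scaling it was higher (0.15, adjusted p = 0.0407). Of the 8 genes of HGF activation and MET, 3 fell (37.5%) and 0 rose, against 23.5% and 6.07% of all genes. Plau, the urokinase that can cleave pro-HGF, fell, with 4.37 ± 0.67 TPM in S217879 livers and 6.83 ± 1.03 TPM in vehicle livers (log2 difference -0.59, SE 0.10, adjusted p = 2.43e-05). St14 and Spint1, a matriptase and its inhibitor, were the others.

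Of the reelin receptors and their adaptor, Vldlr alone reached 1 TPM. Vldlr had 1.23 ± 0.20 TPM in S217879 livers and 2.44 ± 0.69 TPM in vehicle livers (log2 difference -0.73, SE 0.12, adjusted p = 6.3e-06). The other reelin receptor, Lrp8, averaged 0.0667 TPM in S217879 livers and 0.0939 TPM in vehicle livers, and the adaptor Dab1 0.109 and 0.183 TPM in S217879 and vehicle livers.

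Of 19 genes tested of BMP signalling (ligands, receptors, SMADs and targets), 2 rose and 2 fell (10.5% each), against 6.07% and 23.5% of all genes. The ligands Bmp6 and Bmp2, known in liver from sinusoidal endothelium, rose. Bmp6 had 5.15 ± 1.06 TPM in S217879 livers and 3.93 ± 0.87 TPM in vehicle livers (log2 difference 0.36, SE 0.12, adjusted p = 0.0201). Bambi, a decoy receptor of the TGF-beta family, had 1.31 ± 0.37 TPM in S217879 livers and 1.93 ± 0.49 TPM in vehicle livers (log2 difference -0.42, SE 0.12, adjusted p = 0.0068). Smad1, a mediator of BMP signals, also fell, at the threshold, with 4.86 ± 0.68 TPM in S217879 livers and 5.94 ± 0.87 TPM in vehicle livers (log2 difference -0.26, SE 0.10, adjusted p = 0.0499). Sinusoidal endothelial genes differed in the same libraries, with 5 of 10 higher and 0 lower. Their summed levels were 185 to 244 TPM in S217879 livers and 102 to 208 TPM in vehicle livers. Lyve1 had the lowest adjusted p of them (19.9 ± 3.33 TPM in S217879 livers, 11.0 ± 2.68 TPM in vehicle livers, adjusted p = 1.59e-06). The part of the endothelium in the ligand levels was not tested.

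Among the neurotrophins and their receptors, the partners of Ngfr, 3 genes were tested, of which 1 rose and 1 fell. Of all genes 6.07% rose and 23.5% fell. Ntrk2, the receptor for brain-derived neurotrophic factor, had 3.42 ± 1.12 TPM in S217879 livers and 7.72 ± 1.44 TPM in vehicle livers (log2 difference -1.10, SE 0.14, adjusted p = 6.45e-07). Sort1, the sorting receptor that pairs with p75 for pro-neurotrophins, had 9.61 ± 1.89 TPM in S217879 livers and 5.21 ± 1.46 TPM in vehicle livers (log2 difference 0.85, SE 0.13, adjusted p = 4.8e-06).

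The partners of Ecm1 and Colec11 are genes of latent TGF-beta and of the lectin pathway. Of 8 genes of latent TGF-beta and its activation 7 fell (87.5%) and 0 rose, against 23.5% and 6.07% of all genes. Ltbp1, which tethers latent TGF-beta to the matrix, had 1.52 ± 0.32 TPM in S217879 livers and 2.72 ± 0.54 TPM in vehicle livers (log2 difference -0.67, SE 0.11, adjusted p = 1.05e-05). Of the 6 lectin pathway genes 0 passed in limma's test as deposited (1 at an unadjusted p under 0.05, which was lower, and 1 in each direction after median-of-ratios scaling), and Mbl2, the most abundant of them, had 312 ± 47.6 TPM in S217879 livers and 338 ± 79.7 TPM in vehicle livers (adjusted p = 0.69).

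Markers of other cells in the liver moved in the same libraries, in which 23.5% of all genes fell and 6.07% rose. Of 9 portal fibroblast genes tested 6 fell, and Eln, the elastin gene, had 2.14 ± 0.79 TPM in S217879 livers and 5.01 ± 1.63 TPM in vehicle livers (adjusted p = 5.71e-05), while the summed level of the list of 12 ran from 34.3 to 87.9 TPM in S217879 livers and from 49.7 to 103 TPM in vehicle livers. The ectonucleotidase Entpd2, a marker of these cells, was among those that fell (7.97 ± 1.72 TPM in S217879 livers, 10.2 ± 1.49 TPM in vehicle livers, adjusted p = 0.0189). Thy1 did not pass (1.36 ± 0.51 TPM in S217879 livers, 1.72 ± 0.58 TPM in vehicle livers, adjusted p = 0.21), and Gli1, Pi16 and Clec3b averaged at most 0.332 TPM in either group. Of 4 cholangiocyte genes 2 fell. Spp1 had the lowest adjusted p of them (144 ± 52.6 TPM in S217879 livers, 286 ± 68.6 TPM in vehicle livers, adjusted p = 5.74e-05). Mbp, the Schwann cell gene tested, fell as well (0.77 ± 0.19 TPM in S217879 livers, 1.24 ± 0.22 TPM in vehicle livers, adjusted p = 0.000751). Of 7 hepatocyte genes 1 rose, Ttr (adjusted p = 0.0117), and 2 fell. Apoa1, which fell, had 5759 ± 1807 TPM in S217879 livers and 9219 ± 2072 TPM in vehicle livers (adjusted p = 0.0013). Of 2 lymphatic endothelial genes 0 passed in limma's test (1 was lower at an unadjusted p under 0.05). Prox1 had 27.9 ± 5.49 TPM in S217879 livers and 34.1 ± 6.70 TPM in vehicle livers, and was lower after median-of-ratios scaling (-0.16, adjusted p = 0.042). Pdpn averaged 1.06 and 1.14 TPM in S217879 and vehicle livers, and Mmrn1 and Ccl21a at most 0.114 TPM in either group. Which cells the Prox1 level comes from was not tested. Of 5 fat cell genes, Adipoq, Plin1, Lep and Retn averaged at most 0.0413 TPM in either group. Cidec, a lipid droplet gene that fatty hepatocytes also express, had 137 ± 33.6 TPM in S217879 livers and 150.4 ± 30.2 TPM in vehicle livers (adjusted p = 0.46). The part of these cells in the levels of the 10 markers was not tested.

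Median-of-ratios scaling put the median of all genes at -0.01, against -0.12 as deposited. On that scale 26.6% of all genes rose and 27.1% fell. Of 8 genes of HGF activation and MET 3 rose and 3 fell. Of 19 BMP genes 3 rose and 6 fell, and of 8 latent TGF-beta genes 1 rose and 7 fell. The portal fibroblasts had 7 lower and 0 higher, the sinusoidal endothelium had 8 higher, and the portal side 2 higher and 1 lower. All 5 pan-stellate and all 6 central-side genes fell on both scales, and of the activated markers 11 of 12 fell after scaling, all but Acta2 (adjusted p = 0.15).

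Within each group the markers varied together only in part. Over 45 pairs in each group on log2 levels after median-of-ratios scaling, Pearson's r had a median of 0.31 in S217879 livers and 0.32 in vehicle livers, and 34 and 37 pairs were positive in S217879 and vehicle livers. Of these 90 relations 1 passed, Ecm1 with Angptl6 in vehicle livers, with r = 0.97 (permutation test, adjusted p = 0.0009, from the smallest p that 100000 resamples can give) and Spearman's rho = 0.92 (adjusted p = 0.0522). Without the 2 livers farthest from the median of Ecm1 r was 0.94, and without vehicle replicates 6 and 7 it was 0.97. In S217879 livers the same pair had r = 0.79 and rho = 0.87 (permutation test, adjusted p = 0.0548 for r). Hand2 was the exception among the markers, with a median r to the other 9 of -0.26 in S217879 livers and -0.08 in vehicle livers. As deposited the median r was 0.37 in S217879 livers and 0.83 in vehicle livers, where all 45 pairs were positive and vehicle replicates 6 and 7 are low in nearly all markers.

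**Figure D5:**
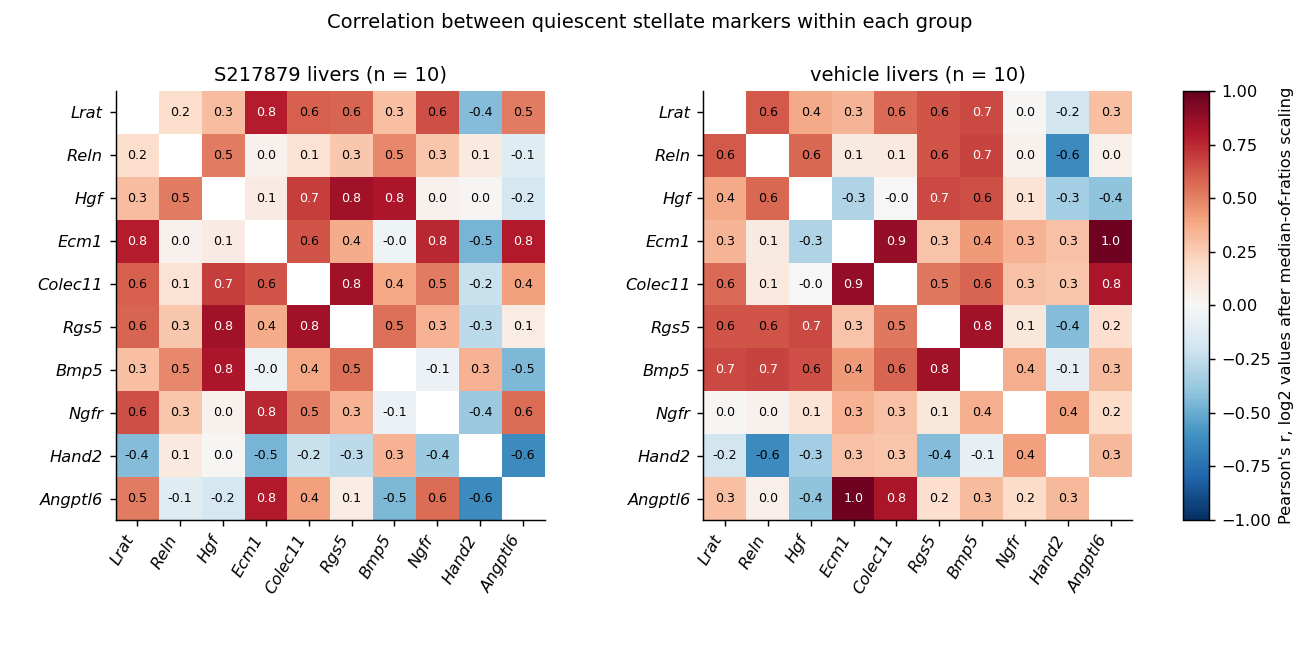
Pearson's r between each pair of markers across the 10 S217879 livers and across the 10 vehicle livers, on log2 values after median-of-ratios scaling, coloured from blue at -1 to red at 1. Ecm1 with Angptl6 in vehicle livers, at 0.97, is the only pair past the threshold, and Hand2 is mostly blue, with a median r of -0.26 in S217879 livers and -0.08 in vehicle livers.

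The genes most like each marker across the 20 livers were sought among 11585 other genes, on scaled log2 values centred within each group, as a description with no test. All points share library preparation and composition. For Hgf the most alike was Lims1 (r = 0.91), for Hand2 Fgfr3 (0.89), for Rgs5 Capza2 (0.87), for Ecm1 Dad1 (0.86) and for Angptl6 Psmc4 (0.85). Igfbp3, the portal-side gene that rose, was the most alike to both Colec11 (0.88) and Lrat (0.79). Col14a1, a fibril-associated collagen, was the most alike to Reln (0.80), Gucy1b1, a subunit of soluble guanylate cyclase, to Bmp5 (0.78) and Srd5a3 to Ngfr (0.77). The second most alike genes were Calu for Hgf, Ddah2 for Hand2, Fabp4 for Rgs5, Vipr1 for Ecm1, Bag1 for Angptl6, Selenof for Colec11, Mtrf1l for Lrat, Dennd5a for Reln, Abcc9 for Bmp5 and Lyrm4 for Ngfr, at r between 0.73 and 0.88.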

How the data were processed

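Livers of 20 mice were compared, 10 given S217879 and 10 given vehicle, by the treatment label of each sample. TPM values are as deposited by the authors, for 49315 genes with a sum of 1000000 in every library. They keep no depth, so there is no counting interval, and precision rests on the spread between animals. Tools named in the submitters' processing notes are STAR 2.5.2b, Trimmomatic 0.36, Subread 1.5.2 and featureCounts, and the build is GRCm38. The gene annotation, the strand setting and the handling of multi-mapped reads were not given in the sources used here. Per the labels' protocols, libraries came from a stranded kit with polyA capture. Columns were matched by the animal number in the labels, with 0 left unmapped, and 0 pairs of libraries were identical. Coordinates and overlaps came from GENCODE M21, and promoter windows from RefSeq, which matched all 10 markers.

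Values were taken as log2(TPM + 0.5). The 13401 genes averaging 1 TPM or more across the 20 libraries went into limma 3.58.1 (R 4.3.3), using lmFit and a trended, robust eBayes with no term but group. Tests were two-sided with Benjamini-Hochberg adjustment over all genes and a threshold of 0.05. Adjusted p-values in the report are from this test unless a permutation test is named, and those given over alternatives are from the test of each alternative. Relative values subtract the library's mean log2 level of the 5 pan-stellate genes, or that of Col1a1. Intervals are 95%. Correlations used 100000 resamples, two-sided, adjusted over 90 relations. The test was tried on simulated data in which 200 of 13401 genes were changed. It called 69% of the changes of 0.5 on the log2 scale, 95% of those of 1, and 5 unchanged genes. Noise there was drawn for each gene apart, so the shared composition of a library was not simulated.

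The members and all gene lists were chosen with earlier results of these data known. Of each list the genes named are the one with the lowest adjusted p among those higher and among those lower, or the most abundant where none passed, and of correlated pairs those past the threshold. Others (Dcn, Col1a1, Lhx2, Foxf1, Pparg, Gata4, Irf2, Rarb, Pnpla3, Rdh10, Ttr, Rbp4, Met, St14, Spint1, Lrp8, Dab1, Bmp2, Smad1, Kcnj8, Myh11, Notch3, Entpd2, Thy1, Pdpn, Cidec and the low markers of other cells) were named after their values were seen. The list symbols Tf and Hjv were not matched, and some genes of the retinoid and neurotrophin lists are not reported here and enter no count of those lists. The alternatives tried are given in the closing section.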

Additional observations from a re-analysis of the deposited data

Results flagged for a closer look

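Of 20 groups of 10 livers screened for a liver far from the others (10 markers in 2 groups), 1 was picked out, and chance picks out about 1 in 20. Hgf in S217879 replicate 4 was at 6.67 TPM, and the next highest S217879 liver was at 5.03 TPM, a gap of 47.0% of the range of its group. After median-of-ratios scaling the same liver was at 5.79 and no longer stood apart. S217879 replicate 3 lay just below it, as the scaling factors were 0.87 for replicate 3 and 1.15 for replicate 4. This library also had the lowest share of ribosomal RNA type genes of the 20, 14.1%, and the highest Bmp5 and Colec11 of its group.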

How the results depend on the processing

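No paired analysis was possible because the labels give each animal its own number and share none between the groups. Reln and Lrat passed under all 35 alternatives of the same quantity, Rgs5 under 33 of 35, Ngfr under 33 of 34, Hand2 under 19 of 35, Hgf and Bmp5 under 10 of 34, Angptl6 under 6 of 35, Colec11 under 5 of 35 and Ecm1 under 0 of 35. The adjusted p over them, each from the test of its alternative, ran from 1.44e-07 to 0.0072 (the Wilcoxon rank-sum test) for Reln, 3.53e-05 to 0.0418 for Lrat, 8.37e-06 to 0.0609 for Rgs5, 1.56e-06 to 0.0758 for Ngfr, 2.43e-05 to 0.0951 for Hand2, 9.29e-05 to 0.26 for Hgf and 0.0055 to 0.39 for Angptl6. The count of markers that fell was 3 with the Wilcoxon rank-sum test and 3 with no filter on low values. There 3234 and 4335 of all genes tested fell, against 3151 of 13401 in the main test. The Wilcoxon test covered the same 13401 genes. With no filter all of the 49315 genes but the 13036 at 0 in every library were tested, so the 4335 are a smaller share. The count of markers that fell was 0 relative to the pan-stellate genes (409 of all genes). Over the fits that left out 1 library each it was 4 to 7 (2656 to 5195 of all genes), and the count that rose was 0 to 1. It was 8 with array weights, after rescaling without the 20 highest genes and after rescaling without the 4 ribosomal RNA type genes. There 8023, 7279 and 8576 of all genes fell. The count that rose was 1 (Angptl6) with median-of-ratios scaling, with or without vehicle replicates 6 and 7, with a minimum mean of 5 TPM, with quantile normalization, after rescaling without the 20 genes of highest mean TPM and without vehicle replicate 9, and 6 relative to the pan-stellate genes. Of all genes tested, 3561, 3231, 628, 3536, 1446, 836 and 9892 rose in these settings, in the same order. The fit with a minimum mean of 5 TPM tested fewer genes than the main test, so its 628 are on a smaller base.

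The sign of Ecm1 turned with array weights (-0.15), quantile normalization (-0.018), rescaling without the 20 highest genes (-0.035), rescaling without the 4 ribosomal RNA type genes (-0.11), without vehicle replicate 6 (-0.045), 7 (-0.02) or both (-0.12), and over the fits without 1 library each it ran from -0.045 to 0.087. Relative to the pan-stellate genes, which fell themselves, the median of the markers was 0.21 and signs turned for Lrat (0.074), Reln (0.028), Hgf (0.23), Colec11 (0.36), Rgs5 (0.023), Bmp5 (0.24), Ngfr (0.17) and Hand2 (0.18). On that measure Reln was -0.011 without Cygb and -0.0019 without Pdgfra, and Rgs5 was -0.015 without Cygb, -0.0067 without Pdgfra and -0.0044 without Pdgfrb. The cause of these changes was not tested. Alternatives chosen after seeing the data were the ratio to Col1a1, leaving out each pan-stellate gene, and the scaled and relative fits without vehicle replicates 6 and 7. With TPM alone, depth limits cannot be stated.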

Other observations

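Each marker was also set against Alb, the hepatocyte gene for albumin, and Pdgfrb, a stellate gene, within each group on scaled log2 values, a comparison of 40 relations chosen after seeing the data. Ecm1 followed Alb in S217879 livers (Pearson's r = 0.91, permutation test, adjusted p = 0.012, and Spearman's rho = 0.85, adjusted p = 0.0601), with r = 0.75 without the 2 livers farthest from the median. In vehicle livers the same pair had r = 0.49 (permutation test, adjusted p = 0.61). No other of the 40 relations passed. Angptl6 against Pdgfrb had r = -0.76 in S217879 livers (permutation test, adjusted p = 0.0911) and r = -0.33 in vehicle livers (permutation test, adjusted p = 0.71).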
